A study of Homo sapiens with 42 samples.

Results

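U6 pseudogenes are genomic copies of the U6 small nuclear RNA gene. Here they are the rows of the deposited count table that carry the U6 class, span at most 500 bases and bear none of the names RNU6-1, RNU6-2, RNU6-7, RNU6-8 or RNU6-9, which belong to the U6 genes. This rule takes 1246 of 175946 rows, on 24 chromosomes, and sets them beside 9 U6 rows that it leaves out. Small RNA was sequenced in 30 libraries, 3 for each of 10 groups: 4 groups of THP-1 cells called A4, A7, E4 and G8, and a group labelled mock, each sequenced with end repair (plus PNK, treated using Antarctic phosphatase and polynucleotide kinase) and without it (minus PNK). THP-1 is a human monocytic leukaemia line in which POLR3G or POLR3GL was knocked out, but neither the gene lost in each of A4, A7, E4 and G8 nor whether each is 1 clone is stated in the labels. The mock libraries are labelled as HEK293T, a human embryonic kidney line, given a control antisense oligonucleotide at 200 nM for 48 hours. The THP-1 controls and the HEK293T cells given an oligonucleotide against POLR3G, 12 samples in all, are not analysed here, so no group is compared with its own control.

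U6 is the catalytic snRNA of the spliceosome, and RNA polymerase III (Pol III) makes it from promoters that lie upstream of the transcribed part. POLR3G and POLR3GL are alternative subunits of that polymerase. Most of the many U6 copies in the human genome are retrotransposed and carry no such promoter, and their sequences differ from U6 to all degrees. Mature U6 ends in a run of uridines with a cyclic phosphate, an end that ligation to an adapter needs repaired.

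Sequence sets the members apart. The most abundant full-length copies differ from U6 at 1 to 6 of 107 bases, and the counts a copy holds vary with where those bases lie. Genome positions are those of GENCODE v29 transcripts (build GRCh38), for RNU6-1, for the most abundant members and for 2 that the results turn on.

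RNU6-1 lies at chr15:67839939-67840045 (minus strand). RNU6-33P (chr4:88684848-88684954, minus strand) lies in an intron of HERC3 on the opposite strand, and RNU6-36P (chr12:97721716-97721822, plus strand) between genes. RNU6-37P (chr1:10298966-10299072, plus strand) lies in an intron of KIF1B on the same strand, and RNU6-11P (chr7:123790605-123790711, minus strand), which differs from U6 at the same 2 bases as RNU6-37P, between genes. RNU6-15P (chr10:21321961-21322067, plus strand) and RNU6-29P (chrX:48776965-48777071, minus strand) are intergenic. RNU6-16P (chr11:88612805-88612911, minus strand) lies in an intron of GRM5, RNU6-48P (chr1:27325219-27325325, plus strand) in TMEM222, RNU6-761P (chr6:42018408-42018514, minus strand) in CCND3, RNU6-32P (chr4:39297605-39297711, minus strand) in RFC1 and RNU6-43P (chr10:102591524-102591630, plus strand) in SUFU, all on the strand of the host gene. RNU6-25P (chr3:195214787-195214893, plus strand) lies in an intron of XXYLT1 on the opposite strand. The row on chromosome 12 (chr12:45554590-45554659, minus strand) is a copy cut short, with bases 1 to 70 of U6 and no substitution, in an intron of a long non-coding gene.

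Counts were spread very unevenly over the members. Of the 1246 rows, 648 (52.0%) had no count in any library, 212 had counts in 1 library only and 16 in all 30. With PNK the members held 39350 counts over 15 libraries, of which RNU6-33P and RNU6-36P, the 2 highest, held 21.7% and the top 10 held 65.9%. Without PNK they held 3221 counts. A count of 0 over all libraries allows up to 3 counts, or 0.0124 counts-per-million (CPM) over all libraries, by counting error alone.

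Longer stretches identical to U6 went with higher counts. The measure used is the longest run of bases identical to RNU6-1, for the 1163 members (93.3%) with a matching GENCODE sequence. All 10 members with a run of at least 70 bases had counts, with a median of 2819.5 with PNK (264 to 4324), and together they held 62.8% of the member counts. The 12 members with runs of 50 to 69 bases had a median of 345.5 counts, and the 22 with 40 to 49 bases a median of 114.5. Of 68 members with runs of 30 to 39 bases, 67 had at least 1 count and the median was 14. Of 412 with runs of 20 to 29 bases 61.7% had a count, and of 639 with shorter runs 28.6%, with medians of 1 and 0. Across these 1163 members, Spearman's rho of run length and counts was 0.49, and that of percent identity and counts 0.37. Members are not independent of each other, because reads from a stretch they share can be counted at any of them.

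**Figure D1:**
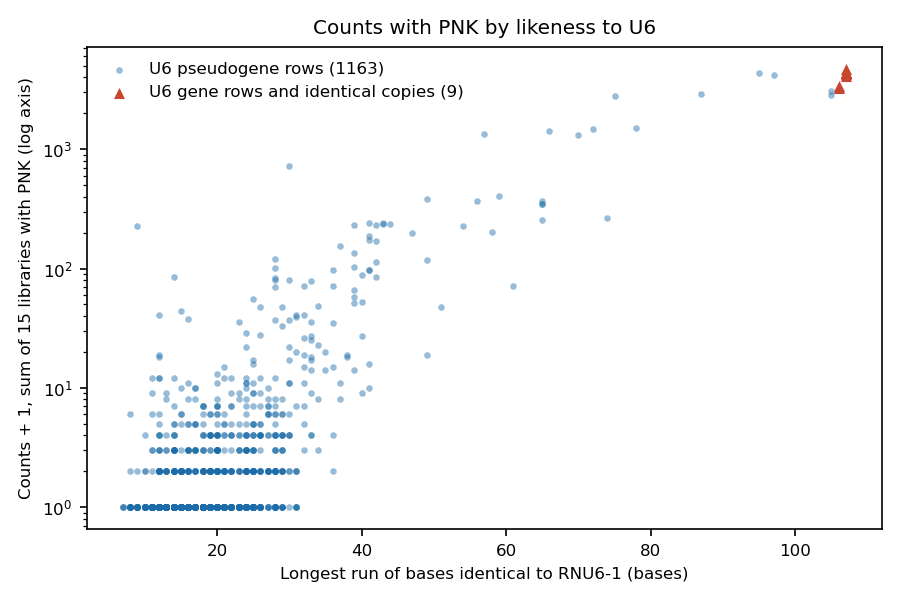
Counts summed over the 15 libraries with PNK (plus 1, log axis) against the longest run of bases identical to RNU6-1, for 1163 U6 pseudogene rows (circles) and the 9 U6 rows outside the rule (triangles). Members with runs of at least 70 bases hold 264 to 4324 counts, and most members with runs under 20 bases hold none.

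A few members with short runs broke this pattern. RNU6-393P, an intergenic copy on chromosome 7 with 6 substitutions and a longest run of 30 bases, had 728 counts with PNK. RNU6-914P, on chromosome 8 in an exon of NIPAL2, had 228 counts with a run of 9 bases and 70.5% identity to U6. RNU6-395P, on chromosome 2 in an exon of POLR2D on the opposite strand, had 84 counts with a run of 14 bases. Both RNU6-914P and RNU6-395P sit in exons of protein-coding genes, as 20 members do, of which 14 had counts.

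The copies that differ from U6 by a single base show that the position of the change goes with the counts. RNU6-33P (G12A, counted from the first base of RNU6-1) had 4324 counts with PNK and RNU6-36P (T10C) had 4217. These levels lie in the range of the 7 rows with the sequence of RNU6-1 itself, 4153 to 4718 counts. RNU6-25P (C79T) had 1508 counts. RNU6-32P, RNU6-12P and RNU6-13P, which share C66T, had 345, 367 and 346. RNU6-37P and RNU6-11P, whose last 2 bases differ (T106A and T107A), had 3088 and 2867, against 3400 and 3267 for the genes RNU6-7 and RNU6-8, which differ from RNU6-1 only by T107G. These classes of position were formed after the values were seen, and no test was run on them.

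Copies with several changes varied widely. RNU6-16P (C6T, C11T and C87T) had 2772 counts and RNU6-15P (G7A and G95A) had 2888. RNU6-29P (G1A, C6T and C79T), RNU6-48P (T9C, G12A, C79T and A83G) and RNU6-761P had 1485, 1424 and 1342, near the 1508 of RNU6-25P, and all of them carry C79T. The cut-short row on chromosome 12, which ends before base 79, had 1310. Other copies with few changes held far fewer counts: RNU6-42P (G12A, T32A and G33C) had 264 and RNU6-10P (A22G, G33A and G95A) had 70. Nor did every copy with C79T lie near RNU6-25P, as RNU6-20P (C11T, C17T, G67A and C79T) had 381 and RNU6-393P 728. RNU6-39P, with C6T and C63T, had 366.

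Near-identical copies can share reads, so a value for 1 of these copies is uncertain. The 7 rows identical to RNU6-1 had 4153 to 4718 counts with PNK, an SD of 173 where counting error for independent rows would give 66.2. RNU6-9 was the highest. The 6 others (RNU6-1, RNU6-2 and the copies RNU6-3P, RNU6-4P, RNU6-5P and RNU6-6P) had 4153 to 4418 counts, an SD of 96.7 against 65.8. RNU6-3P to RNU6-6P are pseudogenes by name, and fall outside the rule because their rows also carry the name of a gene. The sources used here do not give how the authors placed reads with several alignments. Whether counting ignored strand is not settled. All 54 rows that contain a member with at least 10 counts on the other strand had at least that member's count in every library. Counting without regard to strand would give this, but so could a longer row with reads of its own. Reads from a host transcript and from a U6 copy in it cannot be told apart on the same strand, and perhaps not on opposite strands.

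Members in introns of protein-coding genes were more often covered than those between genes. Of 599 such members 350 (58.4%) had a count, against 190 of 525 intergenic members (36.2%), and 40 of 97 (41.2%) in introns of long non-coding genes. Within protein-coding introns, 161 of 290 members (55.5%) on the strand of the host and 189 of 309 (61.2%) on the other strand had counts. In summed counts with PNK the classes were close, 20379 in protein-coding introns and 16882 between genes. Of the members with a sequence, 233 of 456 (51.1%) that end in at least 4 T had counts, and 315 of 707 (44.6%) that do not. These shares describe rows that can share reads, and were not tested.

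The libraries held 9637779 to 13227802 counts without PNK and 4459142 to 6820427 with PNK, over rows chosen so that they do not overlap. In a library, U6 pseudogenes took 161 to 341 counts in the arm without PNK and 1602 to 5808 in the other, so the arm with PNK carries most of the precision. A library had 70 to 109 members with at least 1 count in the arm without PNK, against 119 to 207 in the arm with PNK. The G8 libraries were not alike: without PNK, miRNA made up 2.01% and 2.05% of counts in G8 libraries 1 and 2, 18.99% in library 3, and 12.9% to 25.9% in the other groups. Blood-cell miRNA (6 of 7 found) summed to 5335 to 7653 CPM in mock without PNK, against 5529 to 10070 in A4, A7 and E4, and with PNK to 98.4 to 99 CPM against 210.5 to 663. In G8 they summed to 941 to 7014 CPM without PNK and 46.7 to 154 with PNK, and the latter range holds the mock values. Epithelial miRNA (6 of 6 found) summed without PNK to 28.96 to 41.5 CPM in mock, above A4 (20.5 to 26.4) and below A7 and E4 (50.1 to 65.1). Fibroblast miRNA (4 of 5 found) lay in the same order, at 118 to 171 CPM in mock, 53.4 to 67.8 in A4 and 172 to 226 in A7 and E4. G8 without PNK overlapped mock in both lists, at 5.25 to 34.8 CPM for epithelial and 11.6 to 228 for fibroblast miRNA. These lists do not settle the cell type of the mock libraries, and the group is called mock. Nothing in the labels says that libraries of a group came from separate cultures, so p-values measure the spread between these libraries only.

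U6 pseudogenes took a larger share of the counts with end repair in every group. Their level in all counts was 15.0 to 28.2 CPM (unscaled) without PNK and 298 to 1119 CPM with it, and the lowest value with PNK lay above the highest without. RNU6-33P, for example, had 164 counts over the 15 libraries without PNK and 4324 over the 15 with it. In the edgeR test over 30 libraries with TMM scaling, which sets the typical abundant feature near 0, 25 of 58 members tested were higher with PNK and 3 lower at an adjusted p under 0.05. Over all 11909 features 93.9% were called, 80.2% higher and 13.7% lower, and the median log2 difference was 3.63, against 0.81 over the members tested and 1.96 over the 9 other U6 rows. With DESeq2 size factors, library totals or miRNA factors all 58 members were called higher (medians 2.87, 4.16 and 7.64, against 4.99, 5.94 and 9.32 over all features), so the 3 lower calls (RNU6-271P, RNU6-1201P and RNU6-13P) reversed with the scaling, and a count of called members says little by itself.

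Some members far from U6 had counts almost only with PNK. RNU6-914P, inside the NIPAL2 exon, had 2 counts in the 15 libraries without PNK and 228 with it, 5 to 32 per library. RNU6-395P had 1 count without PNK and 84 with it. RNU6-1336P, a copy on chromosome 4, had 3 and 82, of which 22 were in G8 library 3. These 3 passed the filter on low counts through the arm with PNK alone, so they had to be higher there, and their place among the 25 members called higher is no support. Most of the 58 members tested passed it that way, as only 5 passed the filter in the THP-1 fit without PNK. Among the 10 copies with runs of at least 70 bases, RNU6-16P had the largest difference (log2 2.55, SE 0.17, adjusted p = 1.53e-18) and RNU6-29P the smallest (log2 0.22). RNU6-16P had 2 to 9 counts per library without PNK and also passed the filter through the arm with PNK, so its call is no support either. RNU6-29P had 213 counts without PNK, more than any other member. RNU6-9, which has the sequence of RNU6-1, likewise stood out without PNK, with 642 counts against 219 for RNU6-1.

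Differences of members among the 4 THP-1 groups were tested with edgeR in each arm. Without PNK only 5 members had enough counts to test and none was called (0 at an unadjusted p under 0.05, and 0 called by DESeq2), where 32.8% of all 1779 features were. With PNK 23 of 43 members tested were called (53.5%), against 22.1% of 8628 features, and so were all 9 other U6 rows. The 43 tested are the members with enough counts to pass the filter on low counts, so this share is not one of all 1246. Some passed it only through the group where they are high, which partly fixed the share called. In bulk RNA of this kind, fewer cells and less RNA per cell cannot be told apart.

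**Figure D2:**
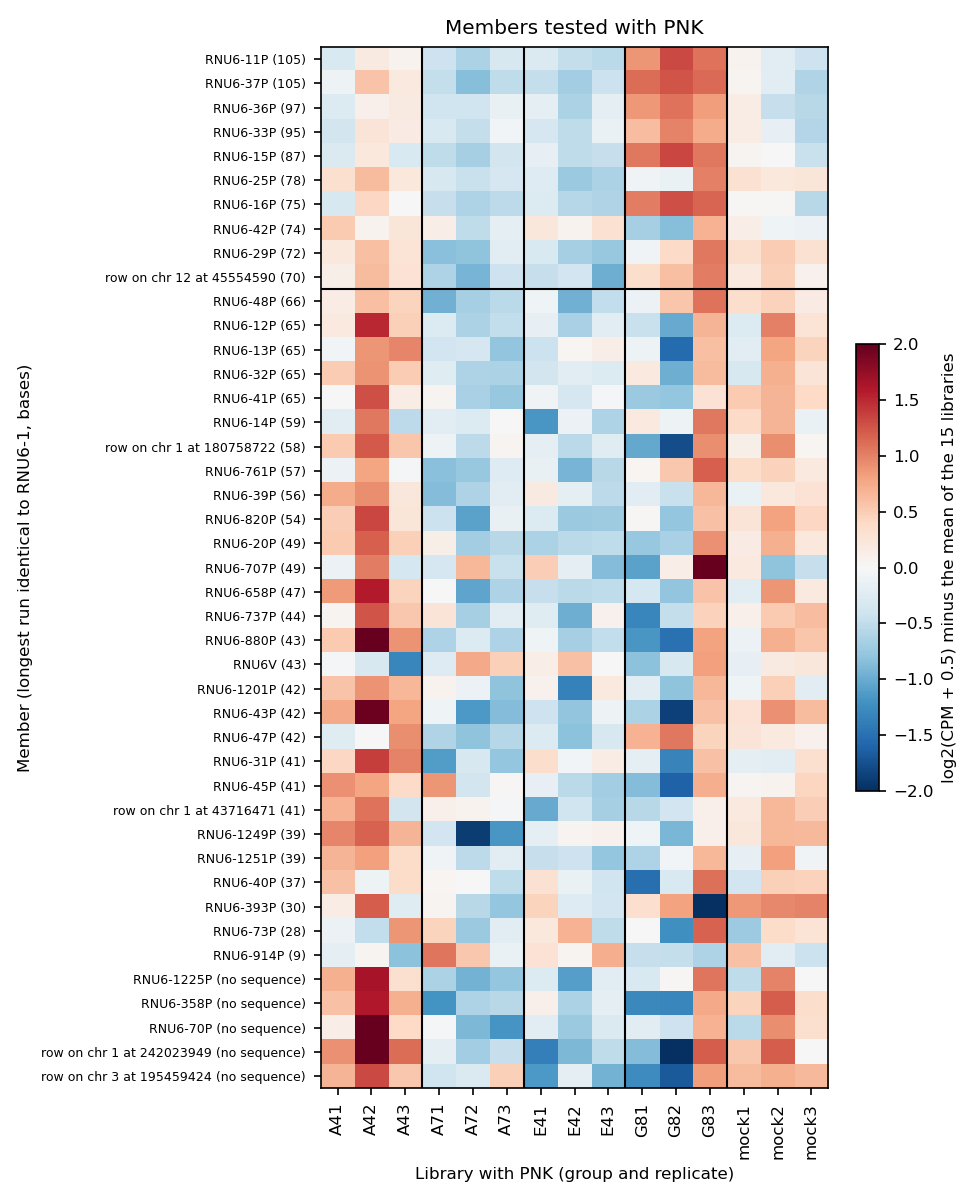
Each row is 1 of the 43 members tested with PNK, ordered by its longest run identical to RNU6-1, and each column a library. Colour is log2(CPM + 0.5) minus the member's mean over 15 libraries. Of the 10 members above the line 6 are high in all 3 G8 libraries, and those below it mostly in A4, above all A4 library 2, and in G8 library 3.

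Of the 10 members with runs of at least 70 bases, 6 had all 3 G8 libraries above the 9 other THP-1 libraries with PNK, and RNU6-25P and RNU6-42P had their highest group mean in A4. RNU6-37P stood at 76.6, 84.6 and 77.2 CPM in the G8 libraries, 32.8, 52.6 and 40.4 in A4, 25.1, 19.2 and 24.6 in A7, and 25.2, 21.5 and 25.9 in E4. The 3 G8 libraries lay above all 9 others, and those of A4 above A7 and E4. RNU6-16P was likewise highest in G8, with A4 library 1 within the range of E4, at 64.6, 77.3 and 70.9 CPM in G8, 25.2, 42.2 and 31.4 in A4, 22.6, 20.5 and 21.8 in A7, and 25.9, 21.1 and 20.6 in E4. RNU6-33P stood at 79.6, 104 and 87.4 CPM in G8, 40.1, 62.2 and 58.2 in A4, 41.7, 37.1 and 49.9 in A7, and 41.1, 36.1 and 46.9 in E4, where A4, A7 and E4 overlapped. RNU6-1, the gene itself, had 94.3 ± 5.94 CPM in G8 (SD, n = 3), 52.3 ± 4.84 in A4, 40.9 ± 1.84 in A7 and 41.6 ± 1.28 in E4. RNU6-36P (96.4 ± 9.61 CPM in G8), RNU6-15P (74.0 ± 8.78) and RNU6-11P (71.9 ± 10.8) also had all 3 G8 libraries above the 9 others.

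**Figure D3:**
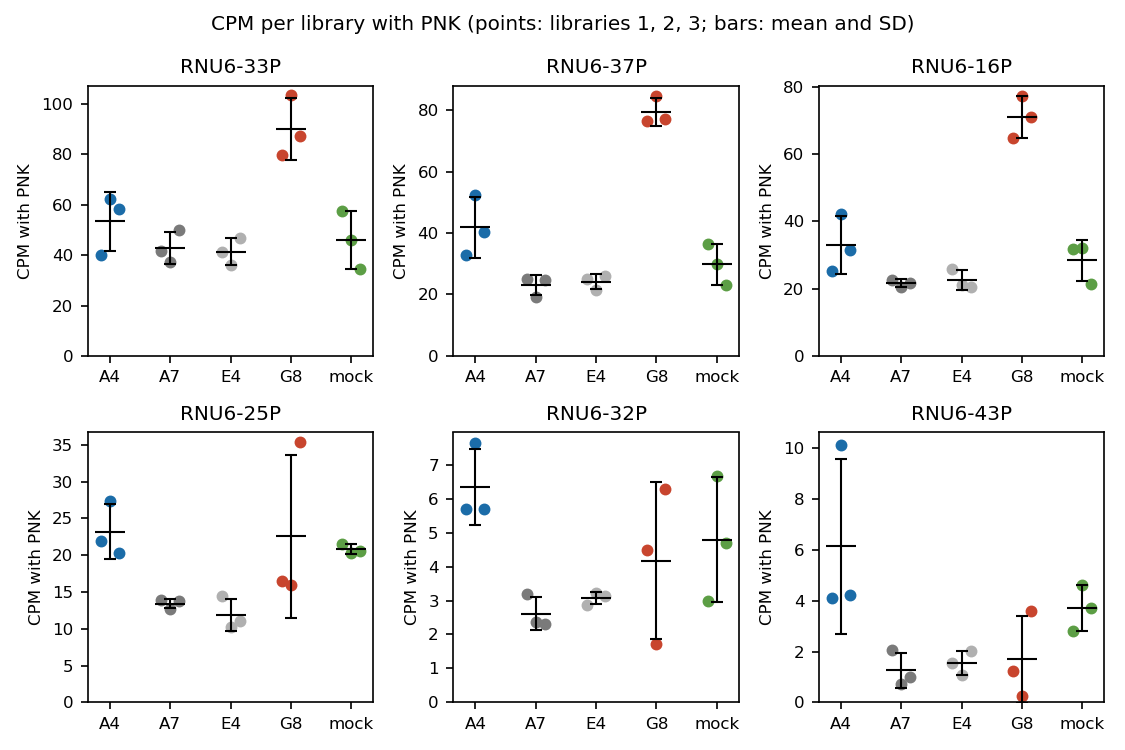
CPM per library with PNK for 6 members, with points for libraries 1, 2 and 3 of a group from left to right and bars for mean and SD. The G8 libraries of RNU6-33P, RNU6-37P and RNU6-16P lie above all others, while those of RNU6-25P, RNU6-32P and RNU6-43P are spread, with library 3 the highest of the G8 libraries.

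Against G8, the edgeR test with PNK called 6 of 43 members between A4 and G8, 11 between A7 and G8 and 12 between E4 and G8, all of them higher in G8. Over all features 15% were called between A4 and G8 (9.71% higher in A4, 5.25% lower), 8.15% between A7 and G8 (4.81% higher in A7, 3.34% lower) and 11.1% between E4 and G8 (6.31% higher in E4, 4.8% lower). All 9 other U6 rows were called higher in G8 in each of the 3. The 3 comparisons share the G8 libraries, so they are not independent. The 6 called against A4 were RNU6-15P (A4 minus G8 log2 -1.28, SE 0.20, adjusted p = 0.000833), RNU6-11P (-1.13), RNU6-16P (-1.11), RNU6-36P (-0.93), RNU6-37P (-0.92) and RNU6-33P (-0.75, adjusted p = 0.0284). Without G8 libraries 1 and 2, which leaves 1 G8 library that is assumed to vary like the other groups, RNU6-36P and RNU6-37P missed the threshold at nearly the same size (log2 -0.83 and -0.89, adjusted p = 0.0878 and 0.0682). Against A7, RNU6-37P differed by log2 -1.80 (SE 0.20, adjusted p = 0.000177), RNU6-16P by -1.72, RNU6-15P by -1.69 and RNU6-11P by -1.59. Against E4 the same 4 members differed by -1.73, -1.67, -1.56 and -1.57. RNU6-47P, a copy in an intron of FER with 5 substitutions, was also higher in G8 than in A7. It stood at 3.49, 4.65 and 2.85 CPM in G8 against 1.12, 0.905 and 1.16 in A7 (log2 -1.74, SE 0.42, adjusted p = 0.02). It passed the filter on low counts only with the G8 libraries counted, so this call is no support. The call ended without any 1 A7 library (adjusted p = 0.0604 to 0.0719) or without G8 library 2 (0.0846). Without G8 libraries 1 and 2 together the difference was log2 -1.39, again with 1 G8 library.

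The median log2 difference over the 43 members was 0.57 for A4 minus G8, while the 10 members with runs of at least 70 bases had a median of -0.84, the 28 with shorter runs 0.69, and the 9 other U6 rows -0.85. The median of all features was -0.04. For A7 minus G8 the medians were -1.33 and -0.56 for the longer and shorter runs, and for E4 minus G8 -1.31 and -0.43. The boundary of 70 bases was set after the values were seen. Some members with shorter runs passed the filter on low counts only with the A4 libraries counted, which partly fixed their medians. Without G8 library 3, 24 members were called between A4 and G8 in place of 6. The directions of these 24 calls are not given here, and they are not to be read as all higher in G8. Summed over the 33 members with shorter runs or no sequence, the remaining G8 libraries stood at 92.3 and 101 CPM with PNK. A4 stood higher there, at 145 to 261 CPM. Summed over the 10 members with longer runs, the same G8 libraries stood at 497 and 603 CPM, above A4 at 255 to 366. With scaling factors computed from miRNA alone, the median of all features in the 3 comparisons moved to -1.15, -1.35 and -1.31, and 15, 36 and 34 members were called, all higher in G8.

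Members with shorter identical runs mostly had their highest mean in A4 among the THP-1 groups, whether they carried 1 substitution or many. In 25 of the 33 members tested that have shorter runs or no sequence, A4 had the highest group mean, against 2 of the 10 with runs of at least 70 bases. Some of the 33, RNU6-43P and RNU6-1249P among them, passed the filter on low counts only with the A4 libraries counted. The filter therefore partly fixed this tally, which is no support for a pattern of shorter runs. RNU6-43P, with 8 substitutions, stood at 4.12, 10.1 and 4.21 CPM in A4, 2.06, 0.724 and 0.991 in A7, 1.54, 1.07 and 2.02 in E4, and 1.25, 0.245 and 3.60 in G8. Its 3 A4 libraries lay above all 9 others. RNU6-32P, the copy with C66T, stood at 5.70, 7.65 and 5.69 CPM in A4, 3.18, 2.35 and 2.31 in A7, 2.88, 3.22 and 3.13 in E4, and 4.49, 1.71 and 6.29 in G8. A4 lay above A7 and E4 there, and G8 overlapped both. RNU6-1249P, an intergenic copy on chromosome 17 with 15 substitutions, stood at 3.17, 3.70 and 2.48 CPM in A4, 0.936, 0 and 0.330 in A7, 1.15, 1.43 and 1.47 in E4, and 1.25, 0.489 and 1.499 in G8.

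Between A4 and A7 the edgeR test with PNK called 17 of 43 members (39.5%), all higher in A4, where 13.5% of all features were called, 8.67% higher and 4.84% lower. The median log2 difference was 1.04 over the members, 0.38 over the 9 other U6 rows, of which none was called, and -0.000729 over all features. The largest were RNU6-1249P (log2 2.85, SE 0.60, adjusted p = 0.00668), the row at chromosome 1 position 242023949 (2.29, SE 0.71, adjusted p = 0.0451), RNU6-43P (2.27, SE 0.59, adjusted p = 0.0217), RNU6-358P (2.21, SE 0.61, adjusted p = 0.027) and RNU6-70P (2.08, SE 0.60, adjusted p = 0.0343). All 5 passed the filter on low counts only with the A4 libraries counted. They therefore had to be high in A4, and their place among the 17 called members is no support. The share of 39.5% and the median of 1.04 include such members. The filter partly fixed both values, so their distance from those of all features is no support either. Of these 5, RNU6-1249P kept its call whichever 1 library was left out. The other 4 lost it without A4 library 2 (adjusted p = 0.113 to 0.238) and without A7 library 2 (0.0746 to 0.137) or library 3 (0.0695 to 0.125), and the chromosome 1 row and RNU6-358P also without A7 library 1 (0.0844 and 0.0881). The chromosome 1 row lost it without A4 library 3 or any 1 E4 library as well (0.0507 to 0.0592). RNU6-37P (0.88, SE 0.20, adjusted p = 0.012), RNU6-29P (0.99, adjusted p = 0.0301) and the cut-short row on chromosome 12 (1.04, adjusted p = 0.0118) were the called members with runs of at least 70 bases. A4 library 2 was the highest of the 12 libraries in 22 of 43 members, and without it 1 member was called. Without A7 library 1, 2 or 3 the count was 8, 2 and 8, and with library totals in place of TMM it was 5.

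A4 against E4 gave 12 called members, all higher in A4, where 9.56% of all features were called, 5.98% higher and 3.58% lower. The median was 0.98 over the members and 0.35 over the 9 other U6 rows. The row at chromosome 1 position 242023949 differed most (log2 2.96, SE 0.77, adjusted p = 0.0266), at 3.80, 9.62 and 4.46 CPM in A4 and 0.384, 0.716 and 1.10 in E4. RNU6-43P (1.97), RNU6-658P (1.86), RNU6-1225P (1.71) and the row at chromosome 1 position 43716471 (1.61) followed. None of these 5 kept its call without A4 library 2 (adjusted p = 0.117 to 0.211) or without any 1 E4 library (0.0654 to 0.151). The row at 43716471 also lost it without A4 library 1 (0.102), and RNU6-43P without A7 library 3 (0.0594) or with a replicate block (0.0645). The row at 242023949, RNU6-43P and RNU6-658P passed the filter on low counts only with the A4 libraries counted, so their calls are no support. The 12 called members and the median of 0.98 include them, and were partly fixed by the filter. Without A4 library 2 no member was called. Leaving out E4 library 1, 2 or 3 gave 1, 1 and 0 called members, leaving out G8 library 3 gave 21, and scaling by library totals gave 1. Both comparisons share the A4 libraries.

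Some abundant copies fell between these patterns. RNU6-25P, the copy with C79T, stood at 21.9, 27.4 and 20.3 CPM in A4, 13.8, 12.7 and 13.7 in A7, 14.4, 10.2 and 11.04 in E4, and 16.5, 15.9 and 35.4 in G8. RNU6-29P, RNU6-48P and RNU6-761P, which carry C79T beside other substitutions, also had G8 library 3 highest, at 35.4, 34.6 and 35.2 CPM, with G8 library 1 at 16.0, 14.7 and 15.5. RNU6-25P was called between A4 and E4 (log2 0.98, adjusted p = 0.0397) and between E4 and G8 (-0.96, adjusted p = 0.0383).

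Relative to the 7 rows identical to RNU6-1 within a library, which needs no scaling between libraries, the classes of position differed between groups in different ways. RNU6-33P and RNU6-36P held 88.6% to 104% of the mean of those rows in A4 with PNK and 94.5% to 102% in G8. RNU6-37P and RNU6-11P held 76.1% to 82.9% in G8, 64.8% to 75.1% in A4, 54.0% to 59.8% in A7 and 51.9% to 59.9% in E4, and G8 did not overlap A7, E4 or A4. RNU6-25P held 36.6% to 47.7% in A4, 29.7% to 33.9% in A7, 23.6% to 33.1% in E4, and 18.1%, 15.4% and 39.6% in the G8 libraries. The 3 copies with C66T held 10.1% to 15.1% in A4, 5.02% to 7.35% in A7, 6.92% to 8.09% in E4, and 3.94%, 1.43% and 7.04% in G8. With PNK, A4 lay above A7, E4 and G8 in all libraries of this last class. Without PNK, on far fewer counts, it did not: the class held 18.6% to 34.1% in A4, 28% to 38.9% in A7, 19.3% to 25.7% in E4 and 12.5% to 19.9% in G8.

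The summed share of pseudogenes among U6 counts was also highest in A4 among the THP-1 groups. With PNK it was 54.7%, 58.1% and 52.5% in A4, 49.9%, 49.2% and 47.7% in A7, 50.9%, 49.2% and 46.7% in E4, 44.7%, 45.1% and 51.9% in G8, and 50.7%, 58.9% and 57.4% in mock. The A4 libraries lay above those of A7, E4 and G8, and mock overlapped A4. Each share rests on 3256 to 11186 U6 counts and has a 95% Wilson interval at most 3.43 percentage points wide, for counting error only. Without PNK the shares were 54.2% to 66.8% on 272 to 513 U6 counts, and A7 was highest, at 66.8%, 63.2% and 66.5%, with E4 library 3 at 66.6%. No test was run on these sums.

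**Figure D4:**
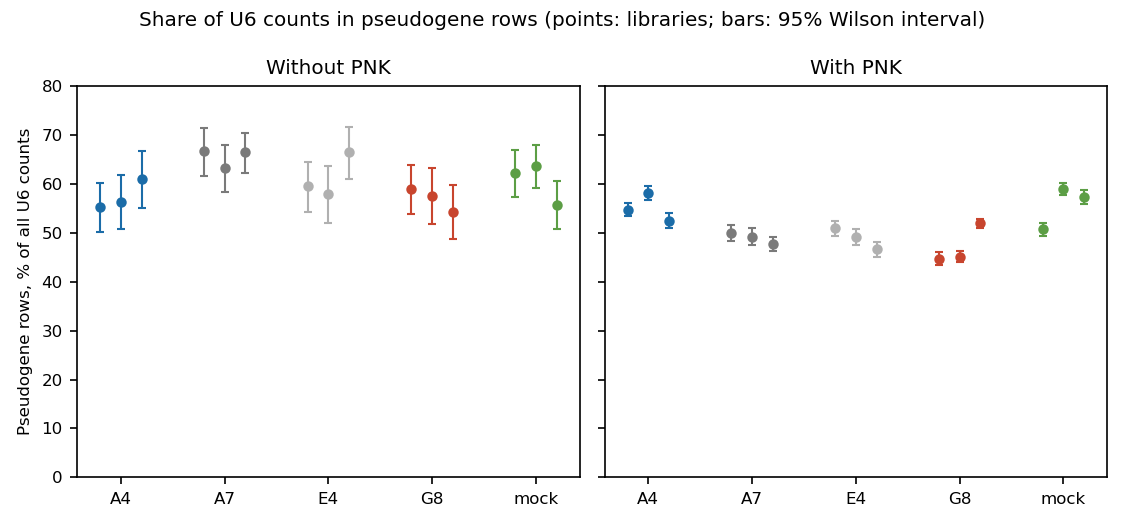
Percent of U6 counts that lie in pseudogene rows, per library, without PNK (left) and with PNK (right). Points are libraries 1, 2 and 3 of a group from left to right, and bars are 95% Wilson intervals. With PNK the A4 libraries sit at 52.5% to 58.1%, above A7 and E4 at 46.7% to 50.9%.

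No difference in U6 pseudogenes was detected between A7 and E4. None of the 43 members was called between them by edgeR (1 at an unadjusted p under 0.05, RNU6-1249P, log2 -1.65, adjusted p = 0.434) or by DESeq2, in a comparison where 0.0927% of all features were called (0.0348% higher in A7, 0.058% lower). The median log2 difference over the members was -0.05.

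Against the mean of the THP-1 groups the mock libraries showed no called member either. That mean runs over groups that differ, so a member with mock between them comes out near 0. Summed over members with runs of at least 70 bases, mock averaged 269 CPM, between 211 in A7 and 557 in G8. Summed over the other members tested among the THP-1 groups, mock averaged 153 CPM, between 82.7 in A7 and 185 in A4. Of 45 members tested none was called by edgeR or DESeq2, where 5.91% of all features were (3.59% higher in THP-1, 2.32% lower), and 7 had an unadjusted p under 0.05, all lower in THP-1, RNU6-393P the most (log2 -0.98, SE 0.44, adjusted p = 0.227). RNU6-393P stood at 13.9, 14.8 and 15.1 CPM in mock, 4.13 to 17.8 in A4, A7 and E4, and 9.48, 13.2 and 0.150 in G8. The median was -0.36 over the members and 0.28 over the 9 other U6 rows. Library totals and miRNA factors, which moved the median of all features to -0.41 and -0.66, gave 9 and 27 called members, all lower in THP-1. The groups also differ by labelled cell line and by the oligonucleotide given, and these cannot be told apart.

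Other RNAs made by Pol III from upstream promoters of the U6 kind did not all move with the members. Of 8 such genes, all tested with PNK, 5 differed across the THP-1 groups, 4 between A4 and A7 (3 higher in A4 and 1 lower), 1 between A4 and E4 and none between A7 and E4. RNU6ATAC, the U6 counterpart of the minor spliceosome, was 6.96 ± 3.08 CPM in A4 and 1.40 ± 0.442 in A7 (log2 2.29, adjusted p = 0.00711). RMRP, the RNA of RNase MRP, was 661 ± 425 against 157 ± 41.8 CPM (log2 2.09, adjusted p = 0.0048), and the Y RNA gene RNY5 1315 ± 335 against 599 ± 184 (log2 1.15, adjusted p = 0.0422). RNY3 was lower in A4, at 926 ± 124 against 2095 ± 339 CPM (log2 -1.17, adjusted p = 0.0138). RN7SK, which holds back transcription elongation as part of a ribonucleoprotein, was 6012 ± 380 CPM in A4, 8003 ± 1214 in A7 and 8344 ± 2281 in G8, and was not called in any of these comparisons. Against G8, 4 of the 8 genes were called in A4, 1 in A7 and 1 in E4. RMRP (log2 1.96, adjusted p = 0.00516), RNY5 (1.53, adjusted p = 0.00947) and RNY1 (0.93, adjusted p = 0.0317) were higher in A4 than in G8, and RNY3 was lower (-0.90, adjusted p = 0.0413). RNY4 was higher in A7 than in G8 (1.13, adjusted p = 0.0174), and RNY3 lower in E4 than in G8 (-0.95, adjusted p = 0.0402).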

How the data were processed

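The authors deposited whole-number counts for each annotated row, not normalized, as the values show. Per the submitters' processing notes, the authors used Trim Galore, FastQC, Bowtie2 2.3.5.1, SAMtools 1.9, deepTools 3.2.1 and bedtools 2.28.0 with GRCh38. The placing of reads with several alignments is not stated in those sources. Because the authors' rows overlap, a non-overlapping set of 85936 of 175946 rows was used, U6 rows first, with 1245 of 1246 members.

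The test was the quasi-likelihood test of edgeR 4.0.16 (R 4.3.3; TMM factors, filterByExpr, Benjamini-Hochberg over all features, threshold 0.05), on 12 libraries per arm for the THP-1 groups, 15 for mock and 30 for PNK. In the THP-1 fits the biological coefficient of variation reached 40.2% (minus PNK) and 24.3% (plus PNK). CPM uses TMM factors over the 15 libraries of an arm, so CPM is not compared between arms. DESeq2 1.42.0, other scalings, no filter, every row, a replicate block and leaving out libraries were alternatives. Names, sequences and gene context come from GENCODE v29 by position, with 1206 members matched, and sequences were compared where a transcript covered at least 90% of the row with at most 10 further bases. The sequences themselves are not reported here.

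Members and lists were chosen with earlier results of these data known. The members named are the 10 most abundant per arm and, per comparison, the 5 largest rises and falls (10 smallest p across groups) past the threshold whose groups do not overlap. RNU6-10P, RNU6-12P, RNU6-13P, RNU6-20P, RNU6-32P, RNU6-39P, RNU6-42P, RNU6-271P, RNU6-393P and RNU6-1201P, and named members in comparisons beyond those, were picked after their values were seen.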

Additional observations from a re-analysis of the deposited data

How the results depend on the processing

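Among the 30 differences chosen by the naming rule no direction reversed, and 17 of the 30 kept their call under every alternative run (626 of 690 values over all of them). The 30 include members that passed the filter on low counts only through the arm or group where they are high. They also include the same copies, which can share reads, set against the same G8 libraries more than once. The tally is therefore not one of independent results and is no measure of support. DESeq2 as the test, DESeq2 size factors and every deposited row kept each count of called members among groups within 1.5 times. With library totals, which lower the A4 medians of all features against A7 and E4 to -0.24 and -0.18, the count across groups with PNK went from 23 to 13, A4 against A7 from 17 to 5, A4 against E4 from 12 to 1 and THP-1 against mock from 0 to 9. With miRNA factors it was 5 across groups without PNK, 38 with PNK, 15 for A4, 36 for A7 and 34 for E4 each against G8, and 27 against mock. With no filter it was 1 against mock. Without G8 libraries 1 and 2, where the lone G8 library is assumed to vary like the other groups, it was 20 for A4 against E4 and 1 against mock. For plus against minus PNK, 28 became 58 with DESeq2 size factors, library totals, miRNA factors or DESeq2, and 62 with no filter. The cause was not tested.

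Leaving out 1 library gave 0 to 2 across groups without PNK (2 without G8 library 3), and 12 to 33 with PNK (12 without A4 library 2, 15 without A7 library 3 or E4 library 2). It gave 1 to 25 for A4 against A7, 0 to 21 for A4 against E4, 5 to 24 for A4 against G8, 0 for A7 against E4, 7 to 12 for A7 against G8 (7 without A7 library 1), 7 to 13 for E4 against G8 (7 without E4 library 2 or 3), 0 to 5 against mock (5 without G8 library 3) and 21 to 34 for PNK.

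Same-numbered libraries with PNK did not deviate together (correlations of -0.11 to 0.22), so the numbers are not taken to pair them. Without PNK those of A4, E4 and G8 did (0.11 to 0.75), while A7 did not with any of them. Between the arms, same-numbered libraries of a group correlated at -0.04 to 0.12, and the main test of PNK did not pair them. With replicate number as a block the counts were 0 and 18 across groups, 14, 8, 6, 0, 11 and 11 for the pairs in the order above, and 0 against mock. For PNK the block was group and replicate number together, which pairs the arms, and 23 members were called.

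Without PNK a library held 161 to 341 pseudogene counts, and 5 members passed the filter and were tested.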

Other observations

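RNU6-393P was nearly absent from 1 library. With PNK it had 25 to 109 counts in 14 libraries and 1 count in G8 library 3, the library with the most U6 pseudogene counts (5808). RNU6V, a copy with 9 substitutions in an intron of GNAI3, stood at 2.53, 1.97 and 0.743 CPM in A4, 2.06, 4.71 and 3.80 in A7, and 1.25, 1.96 and 4.95 in G8, and was not called in any comparison among groups (A4 minus A7 log2 -0.93). RNU6-914P and RNU6-395P, in exons of NIPAL2 and POLR2D, had no higher level in A4: RNU6-914P was 2.06 ± 0.751 CPM in A4 and 4.09 ± 1.84 in A7 (n = 3), and RNU6-395P 0.435 ± 0.102 and 1.10 ± 0.655.

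Without PNK, RNU6-29P was the most abundant member, at 0.526 to 1.81 CPM in 14 libraries and 2.63 in mock library 2, and RNU6-9 exceeded RNU6-1 in all 15 libraries (22 to 63 counts against 8 to 29). With PNK RNU6-9 and RNU6-1 were close, at 213 to 585 and 214 to 598 counts.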
